A study of Mus musculus with 12 samples.

Results

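The genes described here are 6 EphA receptors (Epha3, Epha4, Epha5, Epha6, Epha7 and Epha8) and 4 ephrin-A ligands (Efna2, Efna3, Efna4 and Efna5). They were taken by symbol from the 55359 genes in the count tables, for their known part in the formation of thalamocortical maps. All 10 were among the 17501 genes that passed the filter on low counts. RNA was counted in 12 libraries of microdissected thalamus of mouse pups at postnatal day 0, each from 5 pooled brains cut into 300 µm sections. The tissue was 1 of 2 territories of the ventroposterior medial nucleus (VPM), the relay for touch from the face. ALBSF is the territory that receives upper lip input, and PMBSF the one that receives whisker pad input. The 3 groups, with 4 libraries each, were ALBSF of control pups (Ctrl ALBSF), PMBSF of control pups (Ctrl PMBSF) and ALBSF of pups with the treatment named embWPC, an abbreviation that the labels do not spell out. Together the 10 genes made up 0.0362% to 0.0511% of a library's counts. No strain, sex or transgene is named for any group. A PMBSF group with embWPC was not analysed here. Nothing says that the pools of a group came from separate litters, so p values measure the spread between these pools.

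Eph receptors are receptor tyrosine kinases, and ephrin-A ligands are proteins held on the cell surface by a lipid anchor. Binding needs contact between cells, and it often repels a growing axon, although ligands can also signal back into the cell that bears them. In the developing somatosensory system, thalamic axons carry EphA receptors at graded levels and meet graded ephrin-A ligands, Efna5 among them, on their way to and within the cortex. This matching helps to order the axons of the VPM in the cortical map of the face.

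Epha3 and Epha4 were the members that passed edgeR's test between the territories of control pups, and their proximal promoters are printed because their transcript levels differed in opposite directions. Each run is the 250 bases before the RefSeq transcription start (RefSeq, GRCm38.p6), on the minus strand and read 5′ to 3′. Exact matching placed them at GRCm39 chr16:63684539-63684788 (Epha3) and chr1:77491726-77491975 (Epha4), and 9 bases of the Epha4 window lie in a GENCODE exon. Both windows end next to the start of the canonical GENCODE transcript, but the annotated span of Epha4 reaches further upstream, to 77492816. Capitals mark the motifs searched, on both strands.
Epha3: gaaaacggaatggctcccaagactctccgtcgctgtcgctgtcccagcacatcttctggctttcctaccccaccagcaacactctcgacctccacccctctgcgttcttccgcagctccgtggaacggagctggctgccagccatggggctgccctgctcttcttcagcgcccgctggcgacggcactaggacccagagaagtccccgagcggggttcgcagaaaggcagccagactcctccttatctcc
Epha4: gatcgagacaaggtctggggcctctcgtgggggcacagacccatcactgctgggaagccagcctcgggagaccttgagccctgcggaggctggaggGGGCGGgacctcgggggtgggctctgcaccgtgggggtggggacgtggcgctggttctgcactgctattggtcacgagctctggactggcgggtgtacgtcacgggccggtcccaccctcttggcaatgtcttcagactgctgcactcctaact
The motifs were the GC box GGGCGG, the TATA box TATAAA, the core bound by TCF and LEF factors CTTTGA, and the half-site of nuclear receptors AGGTCA. Epha4 holds 1 GC box, and Epha3 holds none of the 4. Of 32851 RefSeq windows of this length, 32.7% hold a GC box, 12.4% a TATA box, 13.8% CTTTGA and 14% AGGTCA. The windows of both genes are rich in G and C, at 62.8% in Epha3 and 66% in Epha4, against a median of 52.4% over all windows. All 10 genes have an entry. Their windows, 12 in all, hold no TATA box, CTTTGA or AGGTCA. All of them but those of Epha3 and Efna4 hold a GC box, with as many as 6 in Epha8, so the GC box is not particular to Epha4. Their GC content runs from 54.4% in Efna4 to 84% in Epha8.

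Levels are given as CPM, the counts of a gene relative to the total of its library after TMM scaling. The 10 genes are ranked against each other only as CPM per kilobase of exon. On that scale Efna2 had the highest mean level, 28.0 ± 2.5 CPM per kilobase (SD, n = 12 libraries), which is above 92.9% of the genes tested. Efna3, a ligand known from contacts between astrocytes and dendritic spines, and Epha4 followed at the same mean of 13.4. Epha7, which also has forms without a kinase domain, had 7.40 ± 1.3. Efna5 had 4.92 ± 0.72, Epha3 4.63 ± 0.52 and Epha8 4.01 ± 0.56, and Epha5 had 2.50 ± 0.52. Efna4, at 1.01 ± 0.28, and Epha6, at 0.314 ± 0.091, were the lowest. Along this order Efna3 lay above Epha4 in 6 of 12 libraries, Efna5 above Epha3 in 7, and Epha3 above Epha8 in 8, so these neighbours did not part beyond their spread. The other neighbours kept their order in 11 or 12 libraries. With the longest transcript as the length, Epha4 had 17.2, Epha7 12.3, Epha3 7.72, Epha5 6.16 and Epha6 0.422 CPM per kilobase. Epha4 then lay above Efna3, Epha3 above Efna5 and Epha5 above Epha8 in all 12.

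**Figure D1:**
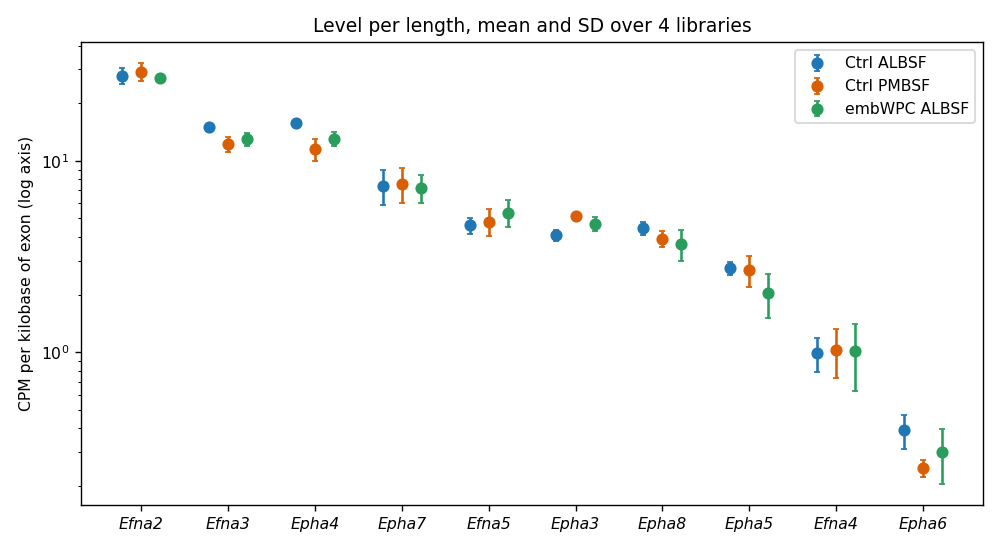
Mean level of each gene in CPM per kilobase of union exon length (log axis) for Ctrl ALBSF, Ctrl PMBSF and embWPC ALBSF, with error bars of 1 SD over 4 libraries. The genes are ordered by their mean over 12 libraries, from Efna2 at 28.0 to Epha6 at 0.314.

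Ctrl PMBSF was first set against Ctrl ALBSF, to see what distinguishes the whisker territory from the lip territory in control pups. Every log2 difference below is the first-named group minus the second, with the SE of the fit after ± and 4 libraries on each side. Among the receptors Epha3 was higher and Epha4 lower in Ctrl PMBSF, while Epha5 and Epha7 had nearly equal means. Among the ligands no gene passed the test, and Efna3 came nearest, with lower values in PMBSF. At an adjusted p under 0.05 in edgeR's quasi-likelihood test, 2 of the 10 genes were called, 1 in each direction, where 1.62% of all genes were called and 0.811% in each direction. Groups that did not overlap were found for 4 of the 10, 1 higher and 3 lower in PMBSF. Over all genes the groups did not overlap for 8.28%, of which 4.66% were higher and 3.62% lower. The median difference was -0.11 on the log2 scale for the 6 receptors and 0.06 for the 4 ligands, against 0.0043 over all genes.

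Epha4 (ENSMUSG00000026235, GRCm39 chromosome 1, 77343822 to 77492816, minus strand) binds ephrins of both the A and the B type. It had 137, 127, 126 and 130.0 CPM in Ctrl ALBSF libraries 1 to 4, and 91.9, 78.7, 105 and 104 CPM in Ctrl PMBSF. All 4 PMBSF libraries lay below all 4 ALBSF libraries, and the PMBSF libraries spread more widely. Epha4 fell in PMBSF, with a log2 change of -0.45 ± 0.09 (edgeR adjusted p = 0.0199). Its means were 129.8 ± 4.9 CPM in ALBSF and 94.8 ± 12 CPM in PMBSF (SD, n = 4), a change of -27.0%.

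Epha3 (ENSMUSG00000052504, chromosome 16, 63363897 to 63684538, minus strand) is a high-affinity receptor for Efna5. Ctrl ALBSF libraries had 36.1, 37.1, 40.5 and 40.9 CPM, and Ctrl PMBSF libraries 49.1, 47.1, 51.6 and 46.4. Here every PMBSF library lay above every ALBSF library, with a like spread in both groups. Epha3 rose in PMBSF by a log2 change of 0.33 ± 0.07, or 25.5%, at an edgeR adjusted p of 0.0390. Its means were 38.7 ± 2.4 CPM in ALBSF and 48.5 ± 2.3 CPM in PMBSF (SD, n = 4).

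Epha4 and Epha3 thus lay on opposite sides of the territory difference. The level of Epha4 divided by that of Epha3, in CPM of the same library, ran from 3.10 to 3.78 in Ctrl ALBSF and from 1.67 to 2.23 in Ctrl PMBSF, with means of 3.37 ± 0.30 and 1.95 ± 0.24 (SD, n = 4). This ratio is free of library scaling but not corrected for gene length, so it serves only to compare groups. The groups did not overlap. The ratio was formed after the values of both genes were known and is given as a description. Shares were taken of the summed level of the 6 EphA receptors described here, per kilobase of union exon length, without Epha1, Epha2 and Epha10. Of that sum, Epha4 made up 45.3% ± 2.7 in ALBSF and 37.0% ± 1.5 in PMBSF, and Epha3 11.7% ± 0.80 and 16.6% ± 1.9. The sum itself overlapped, with 32.0 to 37.6 CPM per kilobase in ALBSF and 26.0 to 33.7 in PMBSF.

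**Figure D2:**
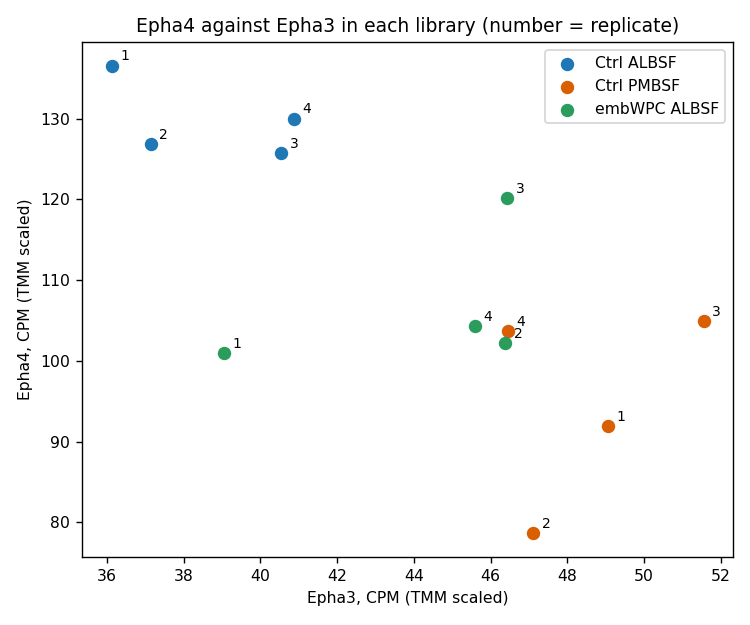
Epha4 against Epha3 in CPM, 1 point per library, numbered by replicate and coloured by group (axes do not start at 0). Ctrl ALBSF lies at the upper left, with 36.1 to 40.9 CPM of Epha3 and 126 to 137 of Epha4, and Ctrl PMBSF at the lower right, with 46.4 to 51.6 and 78.7 to 105.

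The remaining receptors were not called between the control territories. Epha6 (chromosome 16, 59473846 to 60425894), a receptor known from retinal gradients, was scarce, with 38 to 75 counts per library. It had 1.85, 2.22, 2.59 and 1.62 CPM in ALBSF and 1.49, 1.23, 1.34 and 1.19 in PMBSF. The groups did not overlap, yet the log2 difference of -0.65 ± 0.24 had an edgeR adjusted p of 0.253. Epha8 (chromosome 4, 136656730 to 136684202) had 19.1 to 22.9 CPM in ALBSF and 16.8 to 21.1 in PMBSF, a difference of -0.19 with a 95% interval of -0.45 to 0.07. Epha5 (chromosome 5, 84202620 to 84565348), a receptor of the forebrain that binds Efna5, had 50.7 to 59.8 and 42.8 to 66.4 CPM, a difference of -0.03 with an interval of -0.37 to 0.30. Epha7 (chromosome 4, 28813034 to 28967507) is treated with the pools below.

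Of the ligands, Efna3 (ENSMUSG00000028039, chromosome 3, 89221203 to 89230272) had 37.9, 37.0, 36.5 and 37.1 CPM in ALBSF and 27.7, 28.6, 31.6 and 33.4 in PMBSF. The 4 ALBSF values were close together, and all PMBSF values lay below them. The log2 difference was -0.29 ± 0.08, with an edgeR adjusted p of 0.0920, and the gene was called by DESeq2 (adjusted p = 0.0343), which called 3 of the 10 and 2.77% of all genes. By voom 2 of the 10 and 2.53% of all genes were called. Efna2 (chromosome 10, 80015266 to 80025844), the most abundant of the 10 per kilobase, had 54.1 to 68.6 CPM in ALBSF and 58.1 to 73.5 in PMBSF, a difference of 0.07 with a 95% interval of -0.12 to 0.25. Efna5 (chromosome 17, 62909956 to 63188312), the ligand best known from the cortical side of this projection, had 20.9 to 26.4 and 20.1 to 29.8 CPM, a difference of 0.07 with an interval of -0.21 to 0.34. Efna4 (chromosome 3, 89240695 to 89245373), close to Efna3 in the genome, had 29 to 82 counts per library. Its difference of 0.05 had an interval of -0.57 to 0.67.

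**Figure D3:**
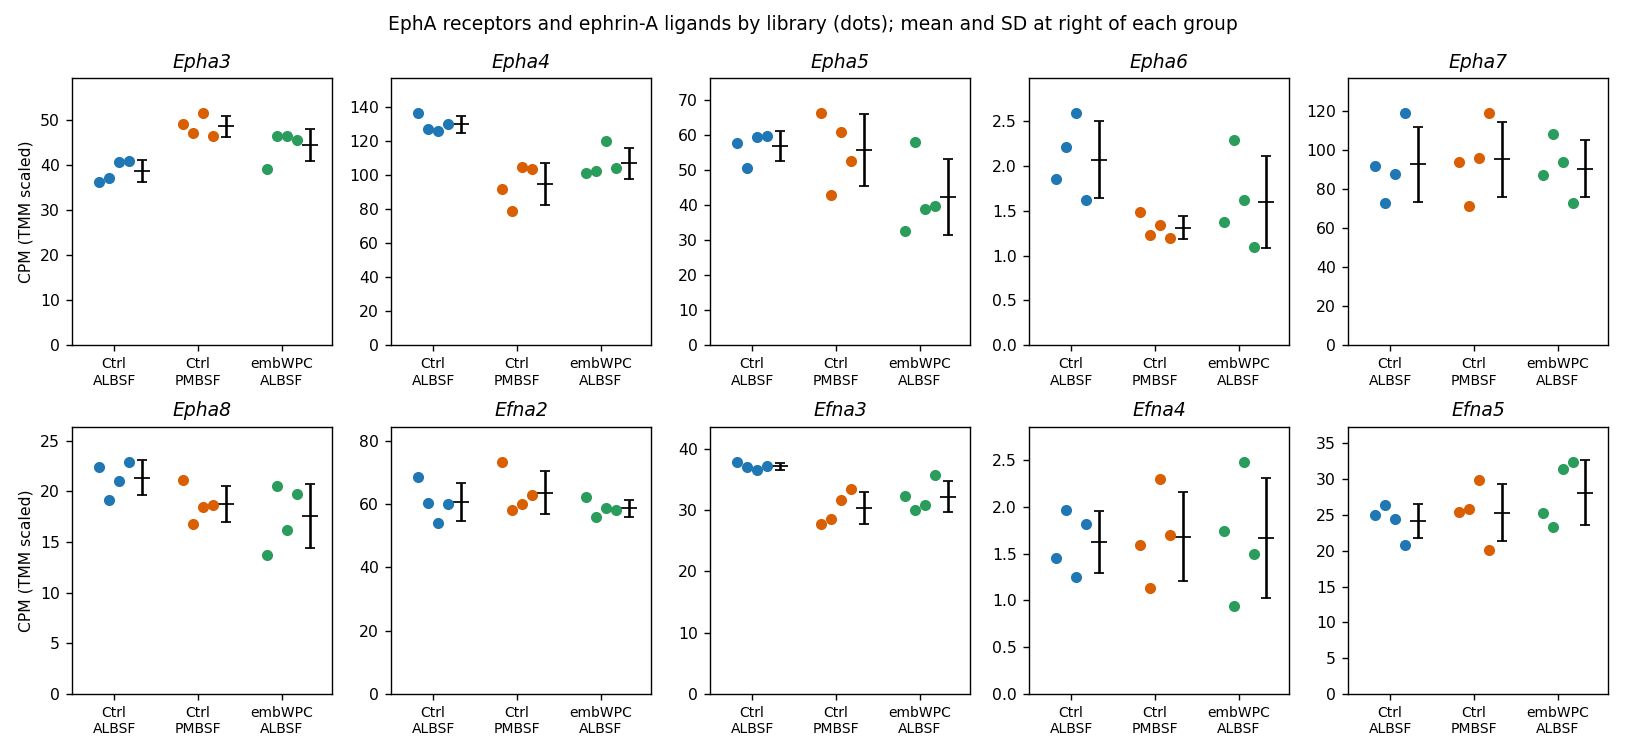
Level of each gene in CPM in each of the 12 libraries (dots in order of replicate number), with the mean and SD of each group of 4 at the right. The mean of Epha3 is lowest and the means of Epha4 and Efna3 are highest in Ctrl ALBSF, while Efna2, Epha7 and Efna4 overlap across the 3 groups.

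Control libraries with the same number deviated together across all genes in both territories, so the numbers were taken to pair the pools. The labels do not say that a number marks shared brains, and a pool number here is only the replicate number. Within pairs, the log2 difference of Epha3 was positive in 4 of 4, from 0.18 to 0.44, and that of Epha4 negative in 4 of 4, from -0.69 to -0.26. Efna3, Epha6 and Epha8 were also lower in 4 of 4 pools. With the replicate number as a block, Efna3 passed the threshold (log2 difference -0.29, edgeR adjusted p = 0.0288), which made 3 of the 10 genes called, where that fit called 5.04% of all genes (857). Epha3 and Epha4 had adjusted p values of 0.00967 and 0.00520 in that fit.

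Epha7 varied more between pools than between territories. It had 91.7, 72.7, 87.7 and 118.7 CPM in ALBSF pools 1 to 4 and 93.9, 71.5, 95.9 and 119.0 in PMBSF pools 1 to 4. Pool 2 was lowest and pool 4 highest in both territories. Between pools of ALBSF the level spanned 0.71 on the log2 scale, whereas within a pair the territories differed by at most 0.13. The territory difference was 0.04 ± 0.16 without the block and 0.04 ± 0.06 with it, at edgeR adjusted p values of 0.964 and 0.778. What differed between the pools was not tested.

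**Figure D4:**
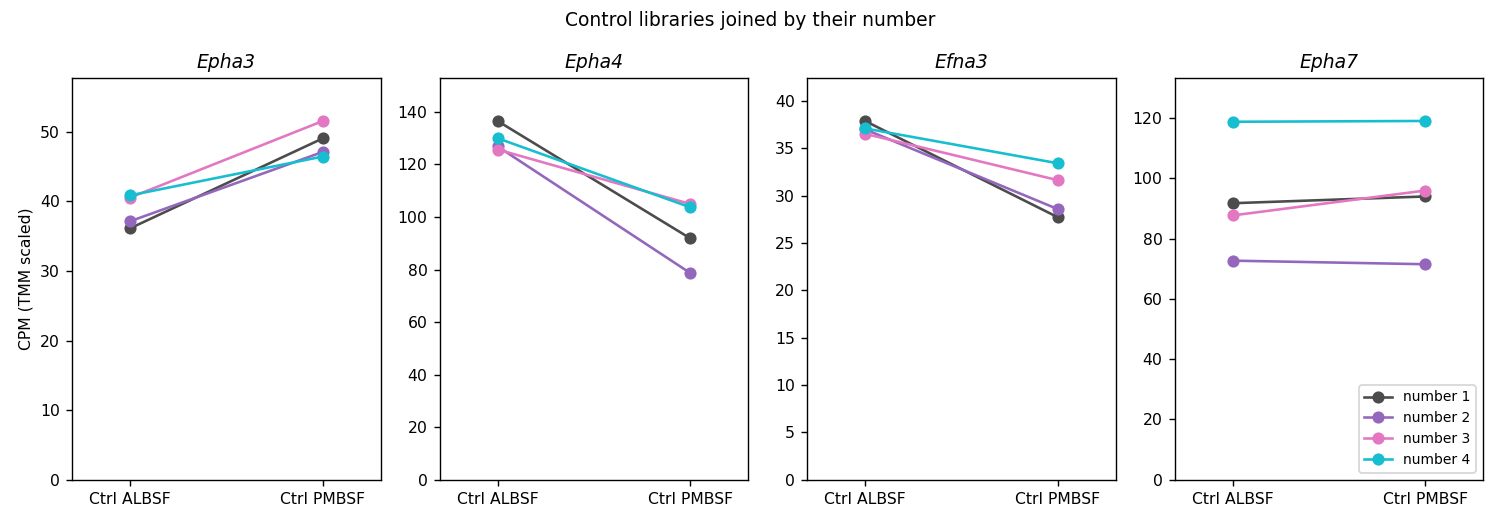
CPM of Epha3, Epha4, Efna3 and Epha7 in the control libraries, with the ALBSF and PMBSF library of the same number joined by a line. All 4 lines go up for Epha3 and down for Epha4 and Efna3, and the lines of Epha7 are nearly level but lie apart, from 71.5 to 119.0 CPM.

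Both calls were narrow in the fit without the replicate block. Single libraries were left out of that fit only, so the blocked fit was not checked in this way. Epha4 missed the threshold when Ctrl ALBSF 2, Ctrl ALBSF 3, Ctrl ALBSF 4, Ctrl PMBSF 1 or Ctrl PMBSF 2 was left out, at edgeR adjusted p values of 0.0521, 0.0594, 0.0588, 0.0502 and 0.0558. Epha3 missed it when any 1 control library or embWPC ALBSF 3 was left out, at 0.0554 to 0.127, and without the count filter, at 0.0658. No sign changed for either gene between the control territories in the 19 alternatives, in which Epha4 ranged from -0.50 to -0.34 and Epha3 from 0.29 to 0.36.

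Markers of some other cell types had mostly higher or mostly lower values in Ctrl PMBSF. The summed meningeal and astrocyte levels overlapped between the territories. All 11 meningeal fibroblast markers had higher values in Ctrl PMBSF, 7 with an unadjusted p under 0.05 and 0 called by edgeR, and their summed level ran from 42.8 to 82.4 CPM in Ctrl ALBSF and from 61.6 to 122 in Ctrl PMBSF. In Ctrl PMBSF 1 to 4 the meningeal sums were 61.6, 121.6, 82.1 and 108.4 CPM, beside 91.9, 78.7, 105 and 104 CPM of Epha4. Ctrl PMBSF 2 had the highest sum and the lowest Epha4, and Ctrl PMBSF 1 had the lowest sum and the second-lowest Epha4. Crabp2 had the highest mean of the 11 markers in both groups, 38.8 CPM in Ctrl ALBSF and 44.5 in Ctrl PMBSF. Without Ctrl PMBSF 2 Epha4 had a log2 difference of -0.37. With the mean level of these markers as a covariate, Epha4 had a difference of -0.34 (edgeR adjusted p = 0.193), Epha3 one of 0.34 (adjusted p = 0.130), and 0 of the 10 genes were called. The markers themselves tended to follow the groups, so this fit cannot tell their part from that of the territory. Oligodendrocyte lineage markers summed to 385 to 500.1 CPM in Ctrl ALBSF and 342 to 372 in Ctrl PMBSF, with 5 of 7 at lower values. All 5 of these had an unadjusted p under 0.05, 4 of the 7 did not overlap, and 1 was called, Sox10, a transcription factor of the lineage (log2 change -0.67, edgeR adjusted p = 0.0189). Astrocyte and radial glia markers summed to 7706 to 11448 and 6225 to 7898 CPM, with 8 of 9 lower. Fabp7 made up most of these sums, with means of 8612 and 6524 CPM, and Vim and Aldh1l1 had nearly equal means. The part of both glial lists in the differences was not tested. In bulk tissue, fewer cells of a type and less RNA per cell cannot be told apart. The 10 markers of thalamic relay neurons were detected, with sums of 2398 to 3068 CPM over all libraries. Between the control territories 1 of them rose (Rora) and 2 fell (Tcf7l2 and Foxp2). Over all genes in this comparison, 11.8% had an unadjusted p under 0.05, 8.28% did not overlap and 1.62% were called. Of 7 further lists (reticular and other GABA neurons, cortical neurons, habenula, endothelium, erythroid cells, microglia, choroid plexus) edgeR called 0 genes there. Values were lower in Ctrl PMBSF for 6 of 6 erythroid, 6 of 6 microglia and 9 of 11 endothelial and mural markers. Of these lists 1, 0 and 4 markers had an unadjusted p under 0.05. The rest of the 7 lists had values of both signs. The part of these lists in the differences was not tested. No marker of any list was at 0 in all libraries.

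Set against Ctrl ALBSF, embWPC ALBSF shows the lip territory of embWPC pups beside that of control pups. None of the 10 genes passed the test. The values of Epha3 were on the whole higher and those of Epha4, Efna3, Epha5 and Epha8 lower after embWPC. By edgeR, DESeq2 and voom 0 of the 10 were called, and 5 had an unadjusted p under 0.05, where 0.0629% of all genes were called (0.0171% higher and 0.0457% lower) and 9.22% had such a p. The groups did not overlap for 2 of the 10, both lower, against 5.74% of all genes, of which 3.04% were higher and 2.7% lower.

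In embWPC ALBSF, Epha4 had 101, 102, 120.2 and 104 CPM. These values lay below all 4 Ctrl ALBSF libraries, whose lowest was 126. The log2 difference from Ctrl ALBSF was -0.28 ± 0.09, with an edgeR adjusted p of 0.328. Efna3 had 32.2, 30.0, 30.8 and 35.7 CPM, again under the lowest control value of 36.5, with a difference of -0.21 ± 0.08 (adjusted p = 0.439). Epha3 had 39.1, 46.4, 46.4 and 45.6 CPM. All but embWPC ALBSF 1 lay above every Ctrl ALBSF library, with a difference of 0.20 ± 0.07 (adjusted p = 0.429).

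Epha5 had the largest log2 difference of the 10 against Ctrl ALBSF. It had 32.5, 57.9, 38.9 and 39.8 CPM against 57.9, 50.7, 59.5 and 59.8 in Ctrl ALBSF. The embWPC libraries were low except embWPC ALBSF 2, which lay within the control range. The log2 difference was -0.43 ± 0.16, with an edgeR adjusted p of 0.410. Leaving out 1 library moved it between -0.62 and -0.32, at edgeR adjusted p values of 0.118 to 0.689. The -0.62 and the 0.118 came without embWPC ALBSF 2. Epha8 had 13.8, 20.5, 16.2 and 19.7 CPM, a difference of -0.28 with a 95% interval of -0.54 to -0.02 before adjustment. Epha6, with 1.10 to 2.29 CPM, had a difference of -0.38 and an interval of -0.88 to 0.13. Leaving out 1 library moved Epha8 between -0.37 and -0.18, the latter without embWPC ALBSF 1, and Epha6 between -0.60, without embWPC ALBSF 2, and -0.22, without embWPC ALBSF 4. Efna5 had 23.3 to 32.5 CPM, a difference of 0.22 with an interval of -0.06 to 0.50. Epha7, Efna2 and Efna4 had differences of -0.04, -0.05 and 0.03, with intervals of -0.39 to 0.31, -0.23 to 0.13 and -0.59 to 0.66.

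All 11 meningeal markers had lower values in embWPC ALBSF than in Ctrl ALBSF, with sums of 25.3 to 78.0 CPM and 1 at an unadjusted p under 0.05. Astrocyte and radial glia markers had lower values for 8 of 9, with sums of 5296 to 10293 CPM. Erythroid markers were lower for 6 of 6, with sums of 354 to 849 CPM against 846 to 1331, and 4 had an unadjusted p under 0.05. Microglia markers were lower for 6 of 6. Of the markers tested, those of GABA neurons were lower for 7 of 7, of cortical neurons for 5 of 5 and of choroid plexus for 4 of 4. In these last lists, from microglia on, 1, 0, 0 and 1 had such a p. The lists not named here had values of both signs. With the mean level of the meningeal markers as a covariate, the log2 differences were -0.36 for Epha4, -0.54 for Epha5 and -0.38 for Epha8. In that fit Efna3 had -0.22 and Epha3 0.19. The edgeR adjusted p values of these genes were 0.187 to 0.413, so none was called. The meningeal markers tended to follow the groups, so that fit cannot tell their part from that of embWPC. The part of the other lists in these differences was not tested.

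**Figure D5:**
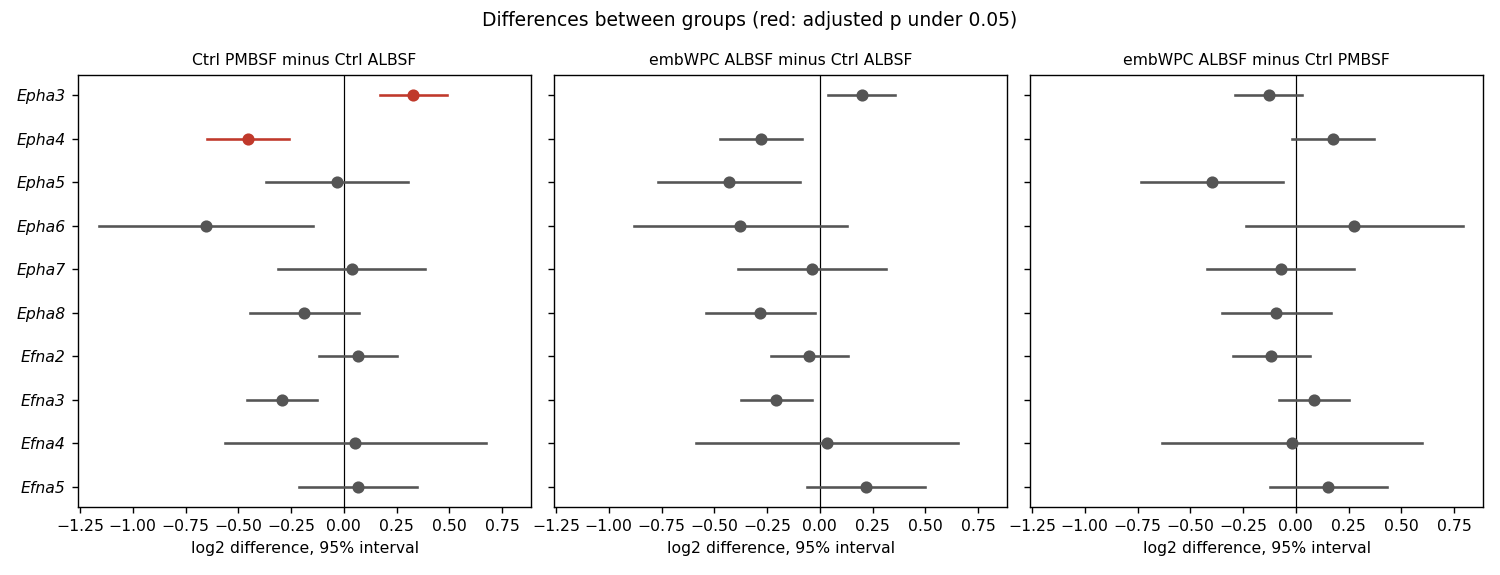
Log2 difference of each gene with its 95% interval from the fit (before adjustment for multiple tests) in the 3 comparisons, with called genes in red. Epha3 (0.33) and Epha4 (-0.45) are called between the control territories, and no gene is called in the comparisons with embWPC ALBSF.

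The comparison of embWPC ALBSF with Ctrl PMBSF called 0 of the 10 genes by edgeR, DESeq2 and voom, and 1 had an unadjusted p under 0.05, where 0.00571% of all genes were called and 9.47% had such a p. That gene was Epha5, with 42.8 to 66.4 CPM in Ctrl PMBSF and a log2 difference of -0.40 ± 0.16 (edgeR adjusted p = 0.469). Epha3 was the only 1 of the 10 whose groups did not overlap, against 4.73% of all genes. Its highest embWPC library and its lowest Ctrl PMBSF library both had 46.4 CPM, and the difference was -0.13 with a 95% interval of -0.29 to 0.03. Epha4 had a difference of 0.17 with an interval of -0.02 to 0.37, and a difference of -0.013 with the meningeal markers as covariate, and Efna3 one of 0.09 with an interval of -0.08 to 0.25. All 11 meningeal markers had lower values in embWPC ALBSF here, 9 with an unadjusted p under 0.05. Oligodendrocyte lineage markers had higher values for 6 of 7, 4 with such a p, and endothelial and mural markers for 8 of 11, 3 with such a p, and edgeR called 0 in all 3 lists. The part of these lists in the differences was not tested. The meningeal covariate tended to follow the groups, so its fit cannot tell the 2 apart.

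The 3 comparisons share libraries, so their values are set side by side only. From Ctrl ALBSF over embWPC ALBSF to Ctrl PMBSF, the means were 129.8, 106.9 and 94.8 CPM for Epha4, 38.7, 44.4 and 48.5 for Epha3, 37.1, 32.2 and 30.3 for Efna3 and 2.07, 1.60 and 1.31 for Epha6. Efna4 had 1.62, 1.66 and 1.68. The embWPC mean lay between the control means for these 5 of the 10 genes and outside them for the other 5, Epha5 (57.0, 42.3 and 55.7 CPM), Epha7, Epha8, Efna2 and Efna5. The ratio of Epha4 to Epha3 was 2.20 to 2.59 in embWPC ALBSF, below every Ctrl ALBSF library and overlapping Ctrl PMBSF. In embWPC ALBSF, Epha4 made up 42.1% ± 3.4 and Epha3 15.2% ± 0.78 (SD, n = 4) of the summed level of the 6 EphA receptors per kilobase.

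Genes of the same pathway outside the 10 were read from lists. Of the 4 other EphA and ephrin-A genes, 0 were called by edgeR between the control territories and 0 had an unadjusted p under 0.05. Efna1 (log2 difference 0.19), Epha10 (-0.11), Epha1 (-0.22) and Epha2 (0.60) had edgeR adjusted p values of 0.728 to 0.896. Of 8 EphB receptors and ephrin-B ligands, 0 rose and 1 fell by edgeR, where 0.811% of all genes were called in each direction. Their values were negative for 7 of 8, with a median of -0.23. The gene that fell was Ephb6, a receptor whose kinase domain is inactive. It had 24.5, 21.8, 20.9 and 20.4 CPM in Ctrl ALBSF and 17.0, 10.9, 14.4 and 14.9 in Ctrl PMBSF, without overlap. Its log2 change was -0.61 ± 0.14 (edgeR adjusted p = 0.0376). Leaving out any Ctrl ALBSF library, Ctrl PMBSF 2, 3 or 4 or embWPC ALBSF 3 ended that call, at 0.0552 to 0.0977, as did the meningeal covariate, at 0.281. Efnb3, Ephb1 and Ephb4 had differences of -0.29, -0.28 and -0.34 at adjusted p values of 0.217 to 0.518.

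Of 43 signalling partners of Eph receptors, 42 were tested and edgeR called 0 between the control territories, with 7 at an unadjusted p under 0.05, against 11.8% of all genes. DESeq2 called 2 and voom 1 of the 42, where they called 2.77% and 2.53% of all genes. The median difference of the 42 was -0.04. Vav3, a signalling protein that binds activated Eph receptors, had 23.3, 26.9, 28.8 and 24.5 CPM in Ctrl ALBSF and 31.4, 33.8, 35.1 and 31.8 in Ctrl PMBSF. The groups did not overlap, and the difference of 0.35 ± 0.09 had an edgeR adjusted p of 0.0539 and passed with the replicate block (0.00635), DESeq2 (0.00900) and voom (0.0463). Anks1b, an adaptor related to the Eph-binding protein Anks1a, Ret, a receptor of GDNF family ligands that works with ephrin-A proteins in motor axons, and Ptpro, a phosphatase of Eph receptors, had differences of -0.21, 0.33 and 0.19 at edgeR adjusted p values of 0.144, 0.198 and 0.273. After embWPC, edgeR called 0 of the 8 and 0 of the 42 against Ctrl ALBSF. An unadjusted p under 0.05 was found for 3 and 2 of them, and for 9.22% of all genes. DESeq2 called 1 of the 42 there, and 175 among all genes.

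The genes whose pattern was most like that of the called genes were sought among 10180 genes with a mean of at least 5 CPM, by Pearson's r of log2 CPM over the 12 libraries. For Epha4 these were Grm4, a metabotropic glutamate receptor (r = 0.925), Mnt, a Max-binding repressor (0.922), and Hip1, an endocytosis adaptor (0.917). Of these, Grm4 (log2 change -0.77, edgeR adjusted p = 0.0113) and Hip1 (-0.49, adjusted p = 0.0342) were called between the control territories, and both missed the threshold with the meningeal covariate, at 0.140 and 0.228. For Epha3 they were Ccdc88c (0.896), Cntn5, a contactin adhesion protein (0.888), and Ccdc186 (0.864), none of which edgeR called. The 12 points share the 3 groups and the library scaling, so r is a description.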

How the data were processed

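The authors deposited raw counts per Ensembl gene and library. The tools named per the submitters' processing notes and the design text are FastQC 0.11.9, STAR 2.7.9a (aligner), SAMtools 1.15 and featureCounts (counter, Subread 2.0.1), with GRCm39 and Ensembl release 104; mm10 is listed too. Settings for strand and read pairs are not given in the sources used here. Overlapping genes had a mean of at most 40.4 counts where a member had 2961 (Epha7), and for Epha6 12.2 against 52.2, so Epha6 is less certain. Library totals ran from 28457046 to 34512840 counts, and all 66 pairs of libraries differed beyond sampling noise.

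Symbols and GRCm39 positions came from the GENCODE mouse annotation, which holds 54749 of the 55359 genes. Counts were filtered with filterByExpr, scaled by TMM and fitted in edgeR 4.0.16 (R 4.3.3) over all 12 libraries with group as the only term. Benjamini-Hochberg adjustment ran over all 17501 genes tested, with a threshold of 0.05. The steps were tested on simulated counts. The replicate numbers were checked by correlating deviations from group means. Same-numbered control libraries had r of 0.198 to 0.396, so they were taken as pairs, and embWPC libraries had -0.147 to 0.0510 with either control group, so they were not. A block was an alternative, as were DESeq2 1.42.0, voom in limma 3.58.1, RLE scaling, no filter, the 8 libraries compared, a meningeal marker covariate and leaving out each library. Counts of list genes called under these were added after seeing the data.

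All 10 members are described. Of each pathway list up to 4 genes with the smallest p between control territories and any called gene are named, and of each called member the 3 genes with the highest r. Called marker genes are named too, chosen after their values were seen. Members, lists and rules were chosen with earlier results of these data known.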

Additional observations from a re-analysis of the deposited data

Results flagged for a closer look

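Epha3 in embWPC ALBSF 1 had 39.1 CPM, far from the other 3 libraries of its group, which had 45.6 to 46.4. It was the only library to stand apart in this way among 30 groups of 4 libraries checked (10 genes in 3 groups), and chance gives about 1 in 20. Without that library the difference of Epha3 between embWPC ALBSF and Ctrl ALBSF was 0.25 (edgeR adjusted p = 0.324), and between embWPC ALBSF and Ctrl PMBSF -0.07.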

How the results depend on the processing

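Of the 10 genes, the number called between Ctrl PMBSF and Ctrl ALBSF was 2 in the fit reported, 3 by DESeq2 and with the replicate block, 1 without the count filter, 0 with the meningeal covariate and 0 to 2 when a library was left out. The 0 came from leaving out Ctrl ALBSF 2, Ctrl ALBSF 3, Ctrl ALBSF 4, Ctrl PMBSF 1 or Ctrl PMBSF 2. Comparisons with embWPC ALBSF called 0 of the 10 in all 19 alternatives each. Over all genes, the 284 called between control territories became 507 by DESeq2, 443 by voom, 857 with the block, 172 with the covariate and 127 to 282 without 1 library. The 11 called for embWPC ALBSF against Ctrl ALBSF became 175, 75, 1 and 22 in that order, 121 without the filter and 1 to 37 without 1 library. The 1 called against Ctrl PMBSF became 71 by DESeq2, 72 without the filter, 0 with the block, 0 with the covariate and 1 to 3 without 1 library. The causes were not tested. The block, with numbers that do not pair embWPC libraries, changed 1 call among the 10 genes, that of Efna3.

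Sign changes were found only in values that no fit called. Between control territories Epha5 was 0.12 with the covariate. Leaving out 1 library gave ranges of -0.13 to 0.075 for Epha5, -0.093 to 0.18 for Epha7, -0.016 to 0.13 for Efna2, -0.13 to 0.20 for Efna4, -0.018 to 0.16 for Efna5 and -0.34 to 0.0010 for Epha10. For embWPC ALBSF against Ctrl ALBSF, Efna2 was 0.0016 by voom and Efna4 -0.13 with the covariate, with ranges of -0.10 to 0.020 for Efna2, -0.22 to 0.23 for Efna4 and -0.14 to 0.11 for Epha7. Against Ctrl PMBSF, Efna4 was 0.024 by voom and Epha4 -0.013 with the covariate, with ranges of -0.27 to 0.18 for Efna4, -0.19 to 0.064 for Epha7 and -0.18 to 0.0066 for Epha8. Counts of 29 to 82 for Efna4 and 38 to 75 for Epha6 limit what their values can show.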
